A study of Mus musculus with 12 samples.

Results

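Interferon-stimulated genes and the genes of MHC class I antigen presentation were followed in the brown fat of obese mice treated with an antibody that activates FGFR1, a receptor for fibroblast growth factors. The set was a written list of 41 genes, split into 25 genes that lean toward type I interferon and 16 that lean toward interferon gamma. Of these, 39 could be measured among 18193 genes: 23 of the type I-leaning genes and all 16 of the gamma-leaning genes. Isg15 and Ifi44 had no probe set assigned to them alone and were not analysed here. The split is one of leaning only, because many of these genes answer to both kinds of interferon.

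The anti-FGFR1 group was 6 adult male ob/ob mice that received a single injection of agonistic anti-FGFR1 antibody at 1 mg/kg into the abdominal cavity. The control IgG group was 6 adult male ob/ob mice that received a control IgG and were pair-fed, so that their food intake matched that of the treated animals. All 12 mice were 3 months old, ate normal chow and gave their brown adipose tissue on day 4 after injection, and each mouse was measured on its own one-colour Affymetrix array. All mice carry the ob/ob genotype, which removes functional leptin, so that no lean or leptin-sufficient group stands beside them, and whole tissue was used.

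Type I interferons signal through the receptor pair Ifnar1 and Ifnar2 to a complex that holds Stat2 and Irf9 and binds the interferon-stimulated response element, or ISRE. Interferon gamma, made mainly by T cells and NK cells, signals through Ifngr1 and Ifngr2 to factors that bind the gamma-activated site, or GAS, and it raises Irf1, the large and small interferon-induced GTPases and the class I presentation genes. In fat, macrophages, lymphocytes, endothelium and the adipocytes themselves can all carry such transcripts, and in whole tissue fewer cells of a type and less RNA per cell cannot be told apart.

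The promoters of the members that the results turn on are shown because they carry the letters that these factors read. RefSeq windows of 300 bases, from 250 bases before to 50 after the transcription start, were at hand for 33 of the 41 listed genes on the build GRCm38.p6. An ISRE-like match was a pair of GAAA with any 2 bases between them and a GAS-like match was TTCNNNGAA, each on either strand, and matches could overlap. In the sequences below, written 5′ to 3′ along the gene's own strand, capitals mark these matches.
Ifit1, chr19:34640639-34640938, plus strand: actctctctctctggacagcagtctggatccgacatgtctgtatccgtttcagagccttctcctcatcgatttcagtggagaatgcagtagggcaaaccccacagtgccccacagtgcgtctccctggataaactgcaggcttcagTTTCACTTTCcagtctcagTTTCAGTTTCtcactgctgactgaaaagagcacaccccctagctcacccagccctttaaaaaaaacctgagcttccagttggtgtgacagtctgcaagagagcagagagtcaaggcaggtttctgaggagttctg
Ifit3, chr19:34583279-34583578, plus strand: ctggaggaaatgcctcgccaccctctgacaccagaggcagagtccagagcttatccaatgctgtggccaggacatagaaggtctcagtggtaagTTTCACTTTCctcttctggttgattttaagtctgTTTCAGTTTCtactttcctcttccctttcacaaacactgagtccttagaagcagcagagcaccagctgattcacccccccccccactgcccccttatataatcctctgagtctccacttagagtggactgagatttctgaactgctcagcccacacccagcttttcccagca
Igtp, chr11:58199306-58199605, plus strand: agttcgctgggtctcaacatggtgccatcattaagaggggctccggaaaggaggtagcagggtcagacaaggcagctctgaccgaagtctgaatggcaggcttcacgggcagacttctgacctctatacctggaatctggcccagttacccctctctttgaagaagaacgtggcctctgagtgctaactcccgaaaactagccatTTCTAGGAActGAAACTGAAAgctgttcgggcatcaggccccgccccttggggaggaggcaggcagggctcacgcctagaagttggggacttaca
Irgm1, chr11:48871371-48871670, minus strand: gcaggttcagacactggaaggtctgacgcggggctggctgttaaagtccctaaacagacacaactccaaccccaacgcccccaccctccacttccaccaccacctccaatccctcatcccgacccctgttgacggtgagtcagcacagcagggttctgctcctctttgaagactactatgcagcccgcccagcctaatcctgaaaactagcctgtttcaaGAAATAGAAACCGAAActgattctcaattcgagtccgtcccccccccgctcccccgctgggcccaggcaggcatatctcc
B2m, chr2:122147437-122147736, plus strand: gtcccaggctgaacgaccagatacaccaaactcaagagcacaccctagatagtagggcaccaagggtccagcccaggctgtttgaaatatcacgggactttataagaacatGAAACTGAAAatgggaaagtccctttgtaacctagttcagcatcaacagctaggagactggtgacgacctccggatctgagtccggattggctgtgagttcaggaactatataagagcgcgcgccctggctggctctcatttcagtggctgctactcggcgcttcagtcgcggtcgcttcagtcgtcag
Tapbp, chr17:33919228-33919527, plus strand: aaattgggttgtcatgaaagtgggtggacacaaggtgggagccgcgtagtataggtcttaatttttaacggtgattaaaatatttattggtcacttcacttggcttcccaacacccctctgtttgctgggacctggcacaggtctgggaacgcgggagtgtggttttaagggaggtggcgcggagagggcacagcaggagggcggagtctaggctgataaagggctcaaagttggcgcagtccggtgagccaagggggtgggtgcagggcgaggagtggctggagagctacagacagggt
Ifit1 and Ifit3, the genes of RNA-binding proteins that block the translation of viral RNA, each hold 2 ISRE-like matches on the opposite strand. Igtp, which encodes a small interferon-induced GTPase, holds 1 GAS-like and 1 ISRE-like match within a short stretch, and Irgm1, its relative, holds 2 ISRE-like matches that overlap. B2m, the light chain of class I molecules, holds 1 ISRE-like match. Tapbp, which encodes the peptide-loading chaperone tapasin, holds neither run of letters in this window. Among the type I-leaning genes with a window, 11 of 19 held an ISRE-like match, and among the gamma-leaning genes 5 of 14 did. By windows these are 54.5% and 27.8%, against 3.44% of all 32851 windows in the table. A GAS-like match stood in 18.2% of type I-leaning and 22.2% of gamma-leaning windows, against 8.3% of all windows. All 4 GTPase genes with a window held an ISRE-like match, whereas 1 of 8 class I genes with a window did. This contrast depends on the strict letters of the pattern. The H2-K1 and H2-D1 windows hold the run tttcacttct, which differs from the opposite-strand form of the pattern in its last 2 bases only. A window without a match may therefore still hold such an element. These are matches of letters in 1 window per start site, and binding was not measured here. The Tap1 and Psmb9 windows overlap head to head by 275 bases, at chr17:34187306-34187580.

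The deposited values are log2 expression, and fold changes are given as log2 differences, anti-FGFR1 minus control IgG. Brown fat markers were near the top of the scale: Ucp1, the uncoupling protein of heat production, averaged 14.5 in both groups and Fabp4, a fatty acid carrier, 14.7 in both. The arrays correlated with their own group at 0.992 to 0.996 across genes. Skeletal muscle markers differed widely between arrays of a group, with a mean level of 6.60 to 11.97 in the anti-FGFR1 group and 9.81 to 12.09 in the control IgG group. Several arrays stood apart for the interferon genes. The widest deviation was that of anti-FGFR1 replicate 1, and the gamma-leaning results are given with and without it. Control IgG replicates 3 and 6 were high as well. Among the type I-leaning genes, anti-FGFR1 replicate 4 was the highest of its group in 10 of 23 (11.3% of all genes) and anti-FGFR1 replicate 6 the lowest in 12 of 23 (20.8% of all genes). Anti-FGFR1 replicate 6 was also the lowest in 10 of 16 gamma-leaning genes, and control IgG replicate 1 in 9 of 16 (23.7% of all genes). The log2 ratio of 3′ to 5′ control probe sets of Actb and Gapdh, a measure of RNA quality, was 0.203 ± 0.027 in the anti-FGFR1 group and 0.161 ± 0.031 in the control IgG group (SD, n = 6 each; two-sided exact permutation test p = 0.037). Its part in the results below was not tested beyond a fit that holds it constant, which is given where it ended a call.

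Few of these genes passed the test in brown fat on day 4. Of the 39 measured members, 2 passed the test (limma, Benjamini-Hochberg adjusted p under 0.05 over all genes), which is 5.13%, against 8.03% of all genes tested. Ifit1 was higher and Tapbp lower after anti-FGFR1, which is 2.56% of the members in each direction, against 2.94% of all genes higher (535) and 5.09% lower (926). A second quantile normalization of the arrays gave 732 genes higher and 760 lower, with the same 2 members called. The type I-leaning genes sat slightly above 0 in most cases, with a log2 difference above 0 in 20 of 23 (87%, against 53.4% of all genes) and a median of 0.08. Holding the 3′ to 5′ ratio constant gave a median of 0.15, and leaving out dim genes gave 0.03. The gamma-leaning genes had a median of -0.05, with 5 of 16 above 0, and it lay between -0.06 and -0.02 over the 8 alternative settings. The median of all genes was 0.01. At an unadjusted p under 0.05, 7 type I-leaning genes were higher and 1 was lower, against 9.97% and 12.5% of all genes, and of the gamma-leaning genes 0 were higher and 1 was lower.

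**Figure D1:**
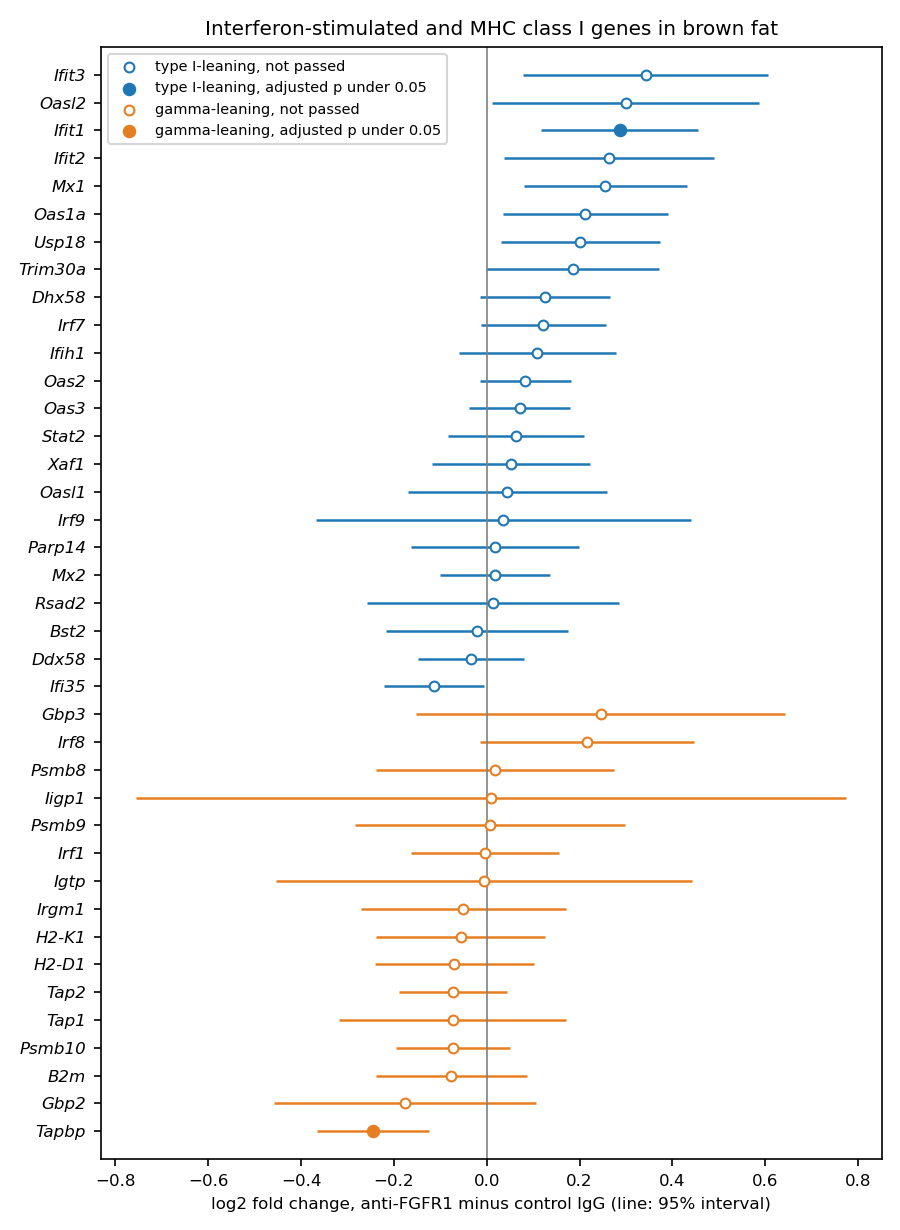
Log2 difference (anti-FGFR1 minus control IgG, horizontal axis) of the 39 measured members, with 95% intervals from limma, ordered by size within each class (blue: type I-leaning, orange: gamma-leaning). Filled points are the 2 genes that passed the test, Ifit1 above 0 and Tapbp below 0, and most other intervals cross 0.

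Among the type I-leaning genes, Ifit1 was the gene that passed the test. It measured 7.36, 7.37, 7.26, 7.71, 7.203 and 7.194 on the 6 anti-FGFR1 arrays (replicates 1 to 6), against 7.21, 7.08, 6.97, 6.99, 7.01 and 7.12 on the 6 control IgG arrays. Anti-FGFR1 replicate 4 was far above the rest of its group, 4 of 6 anti-FGFR1 arrays lay above every control IgG array, and the groups overlapped. The log2 difference was 0.29 (SE 0.079, 95% interval 0.12 to 0.46, limma adjusted p = 0.040), a ratio of 1.22. The call was lost in 7 of 12 fits that left out 1 array, with adjusted p from 0.029 to 0.089, and in the fit that held the 3′ to 5′ ratio constant (adjusted p = 0.177). With the replicate number as a block, the adjusted p was 0.057.

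Ifit3 and Ifit2, of the same family, did not pass. Ifit3 ranged from 7.56 through a median of 7.77 to 8.26 in the anti-FGFR1 group, against 7.08, 7.51 and 7.73 in the control IgG group, with a log2 difference of 0.34 (95% interval 0.08 to 0.61, limma adjusted p = 0.112). Ifit2 ranged from 6.60 through 6.89 to 7.14, against 6.41, 6.62 and 6.86 in controls, with a difference of 0.26 (0.04 to 0.49, limma adjusted p = 0.15). In both genes 4 of 6 anti-FGFR1 arrays lay above every control, and the groups overlapped through anti-FGFR1 replicates 5 and 6 for Ifit3. Near-identical copies of IFIT genes can share probes, and the array may not separate them.

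Mx1, a dynamin-like GTPase of an antiviral family, was the member that came nearest to the threshold without passing. Mx1 was dim on every array, against array medians of 7.19 to 7.23. It ranged from 5.14 through 5.40 to 5.66 in the anti-FGFR1 group, against 4.90, 5.16 and 5.29 in the control IgG group, and 5 of 6 anti-FGFR1 arrays lay above every control, replicate 5 being the exception. The log2 difference was 0.25 (SE 0.082, 0.08 to 0.43, limma adjusted p = 0.075). It passed with the replicate number as a block (adjusted p = 0.016), with the macrophage mean held constant (0.037) and without anti-FGFR1 replicate 5 (0.030). Mx2, its relative, differed by 0.02 (-0.10 to 0.14).

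The OAS family makes the messenger that activates RNase L. Oas1a ranged from 8.69 through 8.79 to 8.90 in the anti-FGFR1 group, against 8.38, 8.54 and 8.97 in the control IgG group, with a log2 difference of 0.21 (0.03 to 0.39, limma adjusted p = 0.142). The highest control, replicate 6 at 8.97, lay above all anti-FGFR1 arrays, and the other 5 controls lay below all of them. Without control IgG replicate 6 the difference was 0.29 and the adjusted p 0.0047. Oas2 and Oas3 differed by 0.08 (-0.01 to 0.18) and 0.07 (-0.04 to 0.18). Of the OAS-like genes, whose proteins carry ubiquitin-like domains, Oasl2 differed by 0.30 (0.01 to 0.59) and Oasl1 by 0.04 (-0.17 to 0.26), and neither passed.

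Usp18, the protease that removes the ubiquitin-like modifier ISG15 and damps receptor signalling, showed the same feature as Oas1a. It ranged from 7.35 through 7.55 to 7.72 in the anti-FGFR1 group, against 7.22, 7.28 and 7.65 in the control IgG group, where replicate 6 stood alone at the top. The log2 difference was 0.20 (0.03 to 0.37, limma adjusted p = 0.147), and 0.26 without that control (adjusted p = 0.029). Control IgG replicate 6 was the highest of its group in 14 of 23 type I-leaning genes and also in 13 of 14 macrophage markers, against 19.2% of all genes. The part of macrophages in its high values was not tested.

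The remaining type I-leaning genes gave smaller differences, and none passed. Trim30a, a TRIM-family protein, differed by 0.19 (-0.0013 to 0.37), with 4 of 6 anti-FGFR1 arrays above every control. Of the antiviral effectors, Rsad2 (viperin) differed by 0.01, Xaf1 by 0.05, Parp14 by 0.02 and Bst2 (tetherin) by -0.02, all with intervals across 0. Ifi35 was the type I-leaning gene with an unadjusted p under 0.05 in the other direction. It ranged from 9.53 to 9.70 in the anti-FGFR1 group, against 9.57 to 9.85 in controls, with a difference of -0.11 (-0.22 to -0.01, limma adjusted p = 0.199).

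The cytoplasmic RNA sensors and the transcription factors gave small differences, and none passed. Dhx58 (LGP2) differed by 0.13 (-0.01 to 0.27), Ifih1 (MDA5) by 0.11 (-0.06 to 0.28) and Ddx58 (RIG-I) by -0.03 (-0.15 to 0.08). Irf7, the factor that amplifies type I interferon output, ranged from 7.68 to 7.93 in the anti-FGFR1 group and from 7.49 to 7.87 in controls, a difference of 0.12 (-0.01 to 0.26). Stat2 and Irf9, which act at the ISRE, differed by 0.06 (-0.08 to 0.21) and 0.04 (-0.37 to 0.44), the wide interval of Irf9 going with a range of 6.77 to 8.04 in the controls alone. The 2 probe sets of Stat2 differed in sign, and Stat2 was 1 of 6 such members among the 17 with several probe sets. The others were Rsad2, Xaf1, Tap1, H2-D1 and Iigp1. In no type I-leaning gene did all 6 anti-FGFR1 arrays lie above all 6 controls, against 1.57% of all genes.

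**Figure D2:**
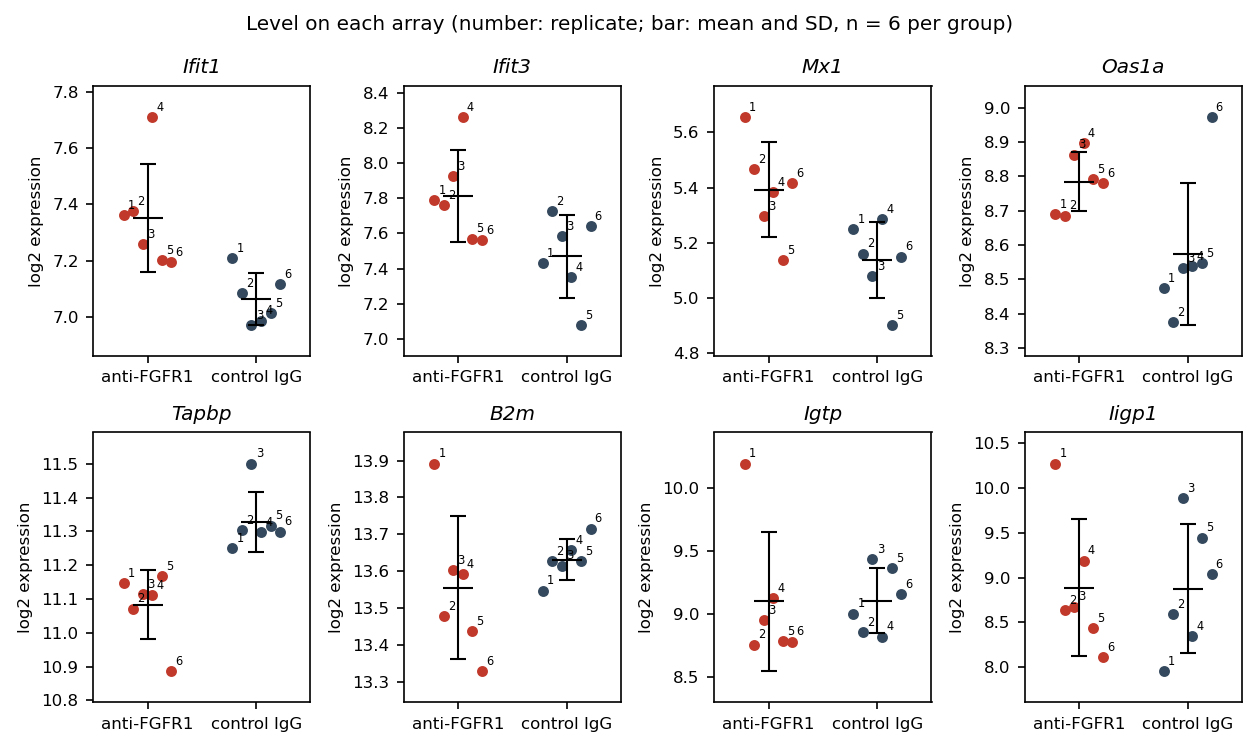
Log2 expression on each array for 8 members, anti-FGFR1 (red) left of control IgG (dark blue), with the replicate number beside each point and mean and SD as bars (n = 6 each). The groups are apart for Tapbp only. Control IgG replicate 6 stands high for Oas1a, and anti-FGFR1 replicate 1 stands high for B2m, Igtp and Iigp1.

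Among the gamma-leaning genes, Tapbp was the gene that passed the test. It measured 11.15, 11.07, 11.11, 11.11, 11.17 and 10.89 on the anti-FGFR1 arrays (replicates 1 to 6), against 11.25, 11.30, 11.50, 11.30, 11.32 and 11.30 on the control IgG arrays. Every anti-FGFR1 array lay below every control, as in 3.55% of all genes. The log2 difference was -0.24 (SE 0.057, 95% interval -0.37 to -0.12, limma adjusted p = 0.015), a ratio of 0.844, and its second probe set gave -0.32. It passed in all 12 fits that left out 1 array, with adjusted p from 0.015 to 0.034. With the 3′ to 5′ ratio held constant the difference was -0.23 and the adjusted p 0.115.

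The partners of tapasin in peptide loading did not pass. Tap1, a subunit of the transporter that carries peptides into the endoplasmic reticulum, ranged from 7.95 through 8.09 to 8.67 in the anti-FGFR1 group, against 8.05, 8.16 and 8.47 in controls, a difference of -0.07 (-0.32 to 0.17). Its next probe set, dimmer at a mean of 6.31, gave 0.16 (0.04 to 0.28, limma adjusted p = 0.107), and the dimmest gave -0.06 and -0.01. Tap2, the other subunit, ranged from 8.45 to 8.76, against 8.55 to 8.74 in controls, also a difference of -0.07 (-0.19 to 0.04). The class I molecules likewise overlapped between groups. B2m ranged from 13.33 through 13.54 to 13.89 in the anti-FGFR1 group, against 13.55, 13.63 and 13.72 in controls, a difference of -0.08 (-0.24 to 0.09). The heavy chains H2-K1 and H2-D1 differed by -0.06 (-0.24 to 0.13) and -0.07 (-0.24 to 0.10). They are near-identical relatives whose brightest probe sets can cross-hybridise, so their values may not be separate.

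The immunoproteasome subunits, which replace the standard catalytic subunits when interferon acts and cut peptides for class I, stayed within the spread of the arrays. Psmb8 differed by 0.02 (-0.24 to 0.27), Psmb9 by 0.01 (-0.28 to 0.30) and Psmb10 by -0.07 (-0.20 to 0.05). Irf1, a main transcription factor of the gamma response, ranged from 10.01 to 10.33 in the anti-FGFR1 group and from 9.97 to 10.41 in controls, a difference of -0.0040 (-0.16 to 0.16). Irf8, a factor of macrophages and dendritic cells, differed by 0.22 (-0.02 to 0.45, limma adjusted p = 0.255), and its second probe set by 0.23.

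The interferon-induced GTPases, some of which attack the vacuoles of intracellular microbes, included Iigp1, the member with the largest SD in both groups. Iigp1 ran from 8.12 through 8.66 to 10.27 in the anti-FGFR1 group, against 7.96, 8.82 and 9.89 in controls. Its SD of 0.76 and 0.72 exceeded that of 99.7% of all genes in each group, and the difference of 0.01 had an interval of -0.76 to 0.78. Igtp ran from 8.76 through 8.87 to 10.19, against 8.82, 9.08 and 9.43 in controls (difference -0.01, -0.46 to 0.44). Gbp3 differed by 0.25 (-0.15 to 0.64), Gbp2 by -0.18 (-0.46 to 0.10) and Irgm1 by -0.05 (-0.27 to 0.17). None passed, and intervals this wide do not show that the groups were alike.

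Within the anti-FGFR1 group a single array carried much of the spread of the gamma-leaning genes, and it was singled out after its values were seen. Anti-FGFR1 replicate 1 was the highest of its group in 14 of 16 gamma-leaning genes (87.5%), against 16.6% of all genes, Tapbp and Irf8 being the exceptions. Igtp stood at 10.19 there with the next array of the group at 9.13, Iigp1 at 10.27 with the next at 9.19, and Gbp3 at 8.17 with the next at 7.60. Class I genes were high there too: Psmb8 was 9.15 with the next at 8.64, Tap1 8.67 with 8.12, and B2m 13.89 with 13.60. The mean deviation of the 16 genes from their group mean was 0.46 on this array, against 0.09 for the 23 type I-leaning genes. It was lowest, at -0.26, on anti-FGFR1 replicate 6, where all 16 were below the group mean.

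**Figure D3:**
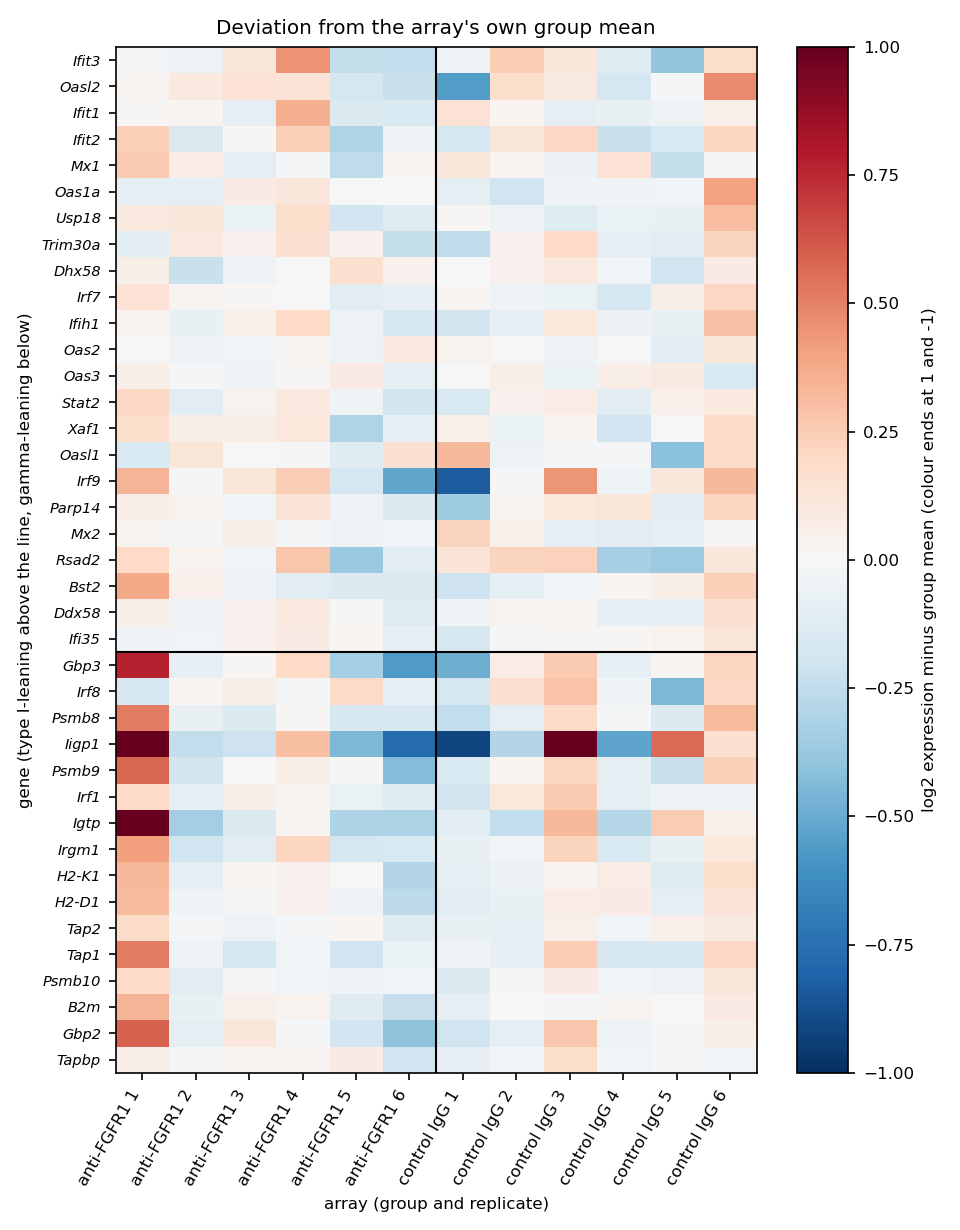
Deviation of each member's log2 expression from the mean of the array's own group, for the 39 members (rows, type I-leaning above the line) and 12 arrays (columns, anti-FGFR1 left of control IgG). Red is above and blue below the group mean. The darkest red runs down the gamma-leaning rows of anti-FGFR1 replicate 1.

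The same array was high for GTPases and a regulator outside the set. Of 5 other interferon-induced GTPases measured, 4 were highest of their group on anti-FGFR1 replicate 1. Gbp6 stood at 9.29, against 8.05 to 8.62 on the other 5 anti-FGFR1 arrays, and Irgm2 at 8.97, against 7.45 to 8.16. Nlrc5, the transactivator of class I genes, stood at 8.25, against 7.37 to 8.05. Ifng, the gene of interferon gamma, was 4.61 on this array, within the range of 4.41 to 4.87 in its group. Ifng was dim on every array, against array medians of 7.19 to 7.23. Its values therefore cannot show whether interferon gamma was raised on this array. Macrophage markers were low there: their mean was the lowest of the group on this array, at 10.2 against 10.4 to 10.6 on the others, and 0 of 14 were above the group mean. All 7 measured NK cell markers were above their group mean there and 5 were the highest of the group. Their list mean was 7.02, against 6.70 to 6.87 on the other 5 arrays. The widest gap was that of Gzma, at 7.55 against 6.52 to 6.91. Of the other lymphocyte lists, 5 of 5 B cell markers and 4 of 7 T cell markers were above their group mean there. The mean deviation was 0.19 for NK cell, 0.09 for B cell and 0.0008 for T cell markers. The part of NK cells or other lymphocytes was not tested.

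**Figure D4:**
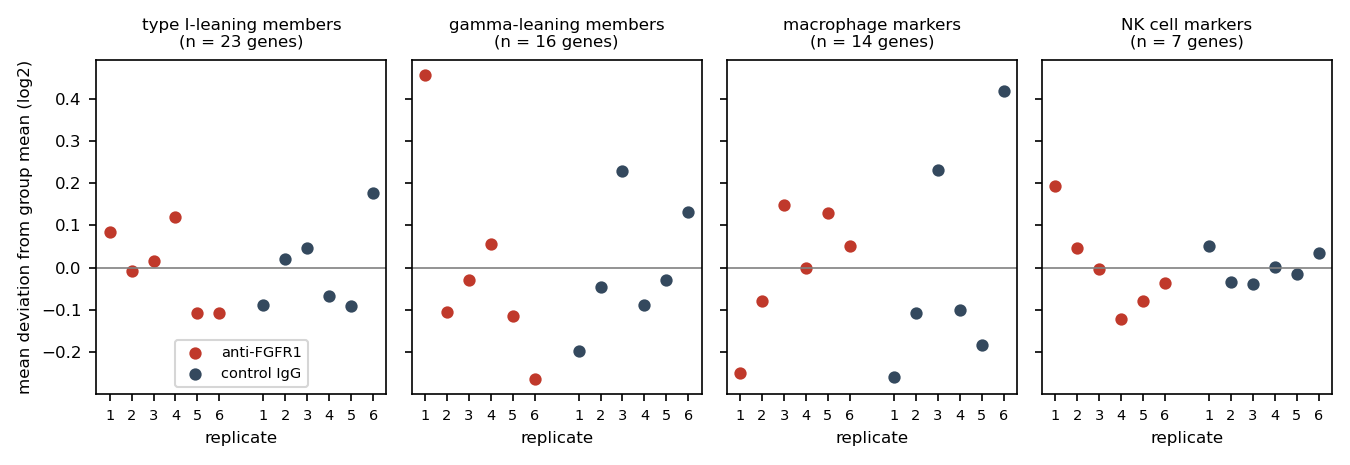
Mean deviation from the array's own group mean (log2) of the type I-leaning and gamma-leaning members, macrophage markers and NK cell markers, for each replicate (anti-FGFR1 in red, left of control IgG in dark blue). Anti-FGFR1 replicate 1 is highest for the gamma-leaning members (0.46) and the NK cell markers (0.19) and lowest of its group for macrophage markers (-0.25). Control IgG replicate 6 is high for macrophage markers (0.42).

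Control arrays also differed in these genes. Control IgG replicate 3 was the highest of its group in 9 of 16 gamma-leaning genes (12% of all genes) and replicate 6 in the other 7 (19.2% of all genes). The mean deviations on these arrays were 0.23 and 0.13, while all 16 genes were below the group mean on replicate 1. Macrophage markers were above the group mean in 14 of 14 cases on both replicates 3 and 6. The median log2 difference of the gamma-leaning genes was -0.01 without control IgG replicate 3 and -0.03 without replicate 6. The median SD of the gamma-leaning genes was 0.23 in the anti-FGFR1 group, or 0.12 without replicate 1, and 0.16 in the control IgG group. The type I-leaning genes had a median SD of 0.14 in the anti-FGFR1 group and 0.15 in controls, and all genes 0.09 and 0.12.

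Without anti-FGFR1 replicate 1 the gamma-leaning genes had lower differences. This had to follow for the 15 of 16 genes in which that array lay above its group mean, so the shift is no independent result. The median log2 difference of the gamma-leaning genes was then -0.13, with 2 of 16 above 0, against 53.2% of all genes. Tapbp was the only member that passed (-0.26, limma adjusted p = 0.023), against 6.05% of all genes that passed in that fit, 2.15% higher and 3.9% lower. Gbp2 differed by -0.30 (-0.50 to -0.09, limma adjusted p = 0.091), B2m by -0.14, Igtp by -0.22 and Tap1 by -0.18, none of which passed. The type I-leaning median stayed at 0.08 without that array, with 18 of 23 above 0, and none of them passed.

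**Figure D5:**
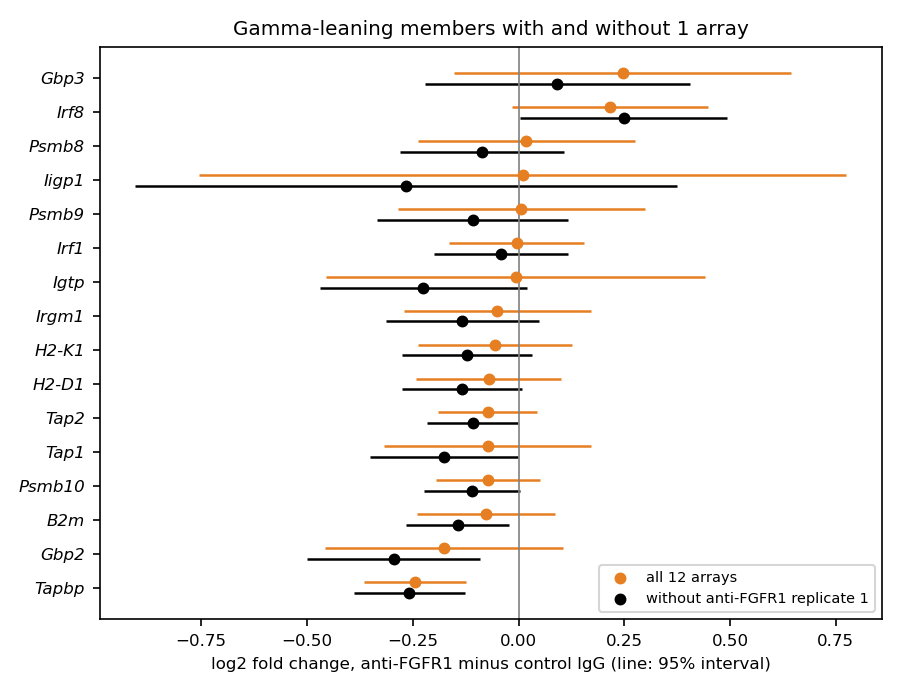
Log2 difference (anti-FGFR1 minus control IgG) with 95% interval for the 16 gamma-leaning members from all 12 arrays (orange) and without anti-FGFR1 replicate 1 (black). The points move left in 15 of 16 genes, Irf8 being the exception, as they must where the removed array lay above its group mean. The Tapbp interval stays below 0 in both fits.

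The wider pathway was read from 7 lists of 108 genes, of which 92 were measured. In all, 3 were higher, 3 lower and 86 did not pass, so that 6.52% were called against 8.03% of all genes. Of 7 interferon ligand genes none passed: Ifnb1 differed by -0.01 (-0.13 to 0.11) and Ifng by 0.15 (-0.06 to 0.36). Of 12 receptors, kinases, STATs and feedback regulators, Stat3 alone passed. Stat3, which carries leptin and interleukin-6 signals and interferon signals in part, averaged 10.78 ± 0.05 in the anti-FGFR1 group and 11.08 ± 0.08 in the control IgG group (SD, n = 6 each), and the 2 sets of arrays did not overlap (-0.30, SE 0.046, limma adjusted p = 0.0011). The interferon receptors gave small negative values: Ifngr1 -0.13 (-0.25 to -0.01, limma adjusted p = 0.176), Ifngr2 -0.11, Ifnar2 -0.07 and Ifnar1 -0.06. Jak1 differed by -0.13 and Tyk2 by 0.10, and neither passed.

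The other 4 calls were spread over effector and presentation genes. Of 37 other interferon-induced genes, 2 were higher and 2 lower. Ifi204, a DNA-binding protein of myeloid cells, averaged 6.48 ± 0.17 in the anti-FGFR1 group and 5.79 ± 0.44 in controls, with 5 of 6 anti-FGFR1 arrays above every control (0.69, SE 0.162, limma adjusted p = 0.016). Rtp4, a receptor transporter protein, was 0.36 higher (adjusted p = 0.033), a call lost in 9 of 12 fits without 1 array and with the 3′ to 5′ ratio (adjusted p = 0.062) or the macrophage mean (0.098) held constant. With all probe sets of Rtp4 averaged the difference was 0.15 (limma adjusted p = 0.258). Isg20, an RNA exonuclease, averaged 8.19 ± 0.04 against 8.43 ± 0.08 in controls, with no overlap (-0.24, limma adjusted p = 0.0039). Tdrd7 was lower by the brightest probe set (-0.26, adjusted p = 0.018) and differed by -0.03 when its probe sets were averaged. With the 3′ to 5′ ratio held constant, Tdrd7 did not pass (limma adjusted p = 0.183).

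Of 12 other class I presentation genes, Cd1d1, a class I-like molecule that presents lipids, was higher (0.24, limma adjusted p = 0.041), a call lost in 9 of 12 fits without 1 array. It was lost too with the 3′ to 5′ ratio held constant (limma adjusted p = 0.082), with the macrophage mean held constant (0.059) and with arrays centred on their medians (0.058). Nlrc5 differed by 0.03 (-0.30 to 0.37) and the chaperone Calr by 0.17 (limma adjusted p = 0.081). None passed among 5 other GTPases, 15 nucleic acid sensors and adaptors, where Zbp1 had the smallest p (0.22, limma adjusted p = 0.122), or 4 other interferon regulatory factors, where Irf3 did (0.09, limma adjusted p = 0.216).

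Among marker lists of cells that can carry these transcripts, the endothelial mean differed between groups. The macrophage, T cell and NK cell means did not pass (exact permutation p adjusted over 9 lists: 0.153, 0.132 and 0.153). Brown adipocyte markers are given under other observations. Of 10 endothelial markers 6 were lower and none higher, Pecam1 among them (-0.52, limma adjusted p = 0.00013), and the list mean ranged from 9.42 to 9.63 in the anti-FGFR1 group, against 9.70 to 9.94 in controls, with no overlap (difference -0.26, two-sided exact permutation p = 0.0022, the smallest that 924 assignments allow; 0.019 adjusted over 9 lists). Its part in the lower Tapbp was not tested. Of 14 macrophage markers, Adgre1 (0.63) and Csf1r (0.37) were higher (limma), and the list mean ranged from 10.2 to 10.6 in the anti-FGFR1 group and from 9.96 to 10.6 in controls (difference 0.23, exact permutation p = 0.102). With that mean held constant, Tapbp was -0.27 (limma adjusted p = 0.019) and Ifit1 0.32 (0.039), while Ifi204 was 0.48 and missed the threshold (0.059) and Oas1a was 0.09 (0.447). T cell markers differed by 0.10 and NK cell markers by 0.08, with exact permutation p of 0.058 and 0.119, and 0 of 7 genes passed in each list.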

How the data were processed

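The 12 arrays, 1 per mouse, were analysed from the series' value table. The authors deposited log2 expression values for 45101 probe sets. The submitters' processing notes name RMA and limma without versions. RMA corrects background, normalizes arrays together and summarises probes, and it pulls small changes of dim probe sets toward 0. No detection call was used here. A genome build for the values is not given in the sources used here, and coordinates belong to the RefSeq promoter windows.

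Genes were assigned to probe sets with the platform annotation, updated by GRCm38.p6 gene identifiers, and 34945 had a single gene, 932 several and 9160 none, with 64 control probe sets set apart. The probe set with the highest mean per gene gave 18193 genes. A linear model per gene with moderated variances (lmFit and eBayes of limma 3.58.1, in R 4.3.3) compared the groups, two-sided and without covariates (Benjamini-Hochberg adjustment over all genes, threshold 0.05), and tables were read with version 1.17.8 of the data.table package. For array-level values all 924 assignments of arrays to groups were enumerated (exact permutation test, two-sided). On simulated data of 18193 genes for this comparison the fit recovered 43.3% of changes of 0.25, 89.6% of 0.5 and 100% of 1 on the log2 scale. The changed genes were a single draw from all genes, with independent noise. Gamma-leaning genes had a wider spread (median SD 0.23 in the anti-FGFR1 group, against 0.09 for all genes), so these rates need not hold for the members. The number of arrays limits the precision.

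The members and all lists were chosen with earlier results of these data known. Named genes were every member, 10 pathway genes whatever their values, every pathway gene that passed, and the 2 of each pathway list with the smallest p. The pathway lists were interferon ligands, receptors with kinases, STATs and feedback, other interferon regulatory factors, nucleic acid sensors, other interferon-induced genes, other GTPases and other class I genes. The 9 marker lists were brown adipocyte, macrophage, T cell, NK cell, B cell, dendritic cell, neutrophil, endothelium and skeletal muscle. The alternatives were 8 settings and 12 fits that each left out 1 array.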

Additional observations from a re-analysis of the deposited data

Results flagged for a closer look

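The lowest or highest array was set apart from its 6-array group by Dixon's criterion (its gap to the next array, as a share of the range) in 8 of 78 member groups, 10.3%, against 5.78% over all genes. Chance alone flags about 1 in 20 groups. Anti-FGFR1 replicate 1 was set apart as the highest of its group for Igtp (10.19), Psmb8 (9.15) and Tap1 (8.67). Ifit1 was highest, at 7.71, on anti-FGFR1 replicate 4, the array that also carried the highest Ifit3. Tapbp was lowest, at 10.89, on anti-FGFR1 replicate 6 and highest, at 11.50, on control IgG replicate 3. Oas1a (8.97) and Usp18 (7.65) were both highest on control IgG replicate 6.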

How the results depend on the processing

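Of the members' calls, Tapbp passed under 7 of 8 alternative settings and Ifit1 under 5 of the 7 in which it was tested, and no call changed direction. Leaving out dim genes removed Ifit1 from the test, so 0 type I-leaning genes were higher. With the 3′ to 5′ ratio held constant 0 type I-leaning genes were higher and 0 gamma-leaning genes lower, and over all genes 281 were higher and 407 lower, against 535 and 926. With the macrophage mean held constant 2 type I-leaning genes were higher, and 0 pathway genes were higher and 8 lower, against 3 and 3. Over all genes 718 were higher and 1372 lower in that fit, so more lower calls were not particular to the pathway. A second quantile normalization gave 8 higher pathway genes, with 732 genes higher over all genes. The cause of these changes was not tested, apart from the genes removed. Leaving out 1 array at a time gave 0 to 2 higher type I-leaning genes, 1 to 4 higher and 3 to 5 lower pathway genes.

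The groups share replicate numbers, and the labels do not say whether these pair the mice. The correlation of same-numbered arrays' deviations ran from -0.29 to 0.33, and 2 of 6 arrays correlated best with their own number. Such values from 6 arrays per group cannot settle whether the mice were paired. With the replicate block 1 type I-leaning gene was higher and 1 gamma-leaning gene lower. The block ended the Ifit1 call (adjusted p 0.057, limma) and the Rtp4 call (0.082) and brought Mx1 past the threshold (0.016).

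Differences of the size seen here are near the limit of what 6 arrays per group can show. Of the type I-leaning genes 13 of 23 lay below the median level of all genes, against 1 of 16 gamma-leaning genes, and no detection call tells which of them stood above background.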

Other observations

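Skeletal muscle markers were low on 1 array of the anti-FGFR1 group, replicate 5, where their mean was 6.60, against 10.77 to 11.97 on the other 5. Control IgG replicate 6 had the lowest muscle mean of its group, at 9.81. Both arrays touch results above, since Mx1 passed without anti-FGFR1 replicate 5, and Oas1a and Usp18 passed without control IgG replicate 6. Of the remaining marker lists, B cell markers differed by 0.11, neutrophil markers by 0.11, dendritic cell markers by 0.04 and muscle markers by -0.67, with exact permutation p of 0.071, 0.074, 0.368 and 0.593. Brown adipocyte markers differed by 0.14 (exact permutation p = 0.0043, 0.019 adjusted over 9 lists), but their median difference was 0.03 and 5 of 7 did not pass. Elovl3, a fatty acid elongase, was 0.76 higher (limma adjusted p = 0.025) and Ppargc1b, a coactivator of mitochondrial genes, 0.26 higher (0.045), while Ucp1 differed by 0.03 and Plin5 by -0.11.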
